A study of Homo sapiens with 4 samples.

Results

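Histone lysine methylation is set by a family of methyltransferases (writers) and removed by a family of demethylases (erasers), and their transcripts were compared between control and CD276 knockout cells of the human prostate cancer line 22Rv1. Genes were taken by their symbols: the KDM, KMT2 to KMT5, SETD, SETDB, EHMT, NSD, SUV39H and SMYD series together with ASH1L, DOT1L and PHF8. The set is not complete, since some genes of these series are not analysed here. The rule gave 53 genes, 33 writers and 20 erasers, of 57014 named genes in the table. Methyltransferases with other names, such as EZH2 and the PRDM genes, lie outside it and are given near the end. Poly(A)-selected RNA of 4 libraries was sequenced as read pairs. The 2 control libraries (replicates 1 and 3) are labelled wild type and carry sgGFP in their names, and the 2 knockout libraries (replicates 1 and 3) carry sgCD276. All were of 22Rv1 cells grown in RPMI-1640 with fetal bovine serum, and the labels name no further treatment, and do not say whether a group is 1 clone or a pool of edited cells. Nothing says that the replicates were separate cultures, so the p-values measure only the spread between these libraries, which may be technical.

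Most writers use a SET domain to move methyl groups from S-adenosylmethionine to lysines of histones H3 and H4, while DOT1L uses a different fold. Erasers are of 2 kinds: the flavin-dependent amine oxidases KDM1A (LSD1) and KDM1B (LSD2), and the JmjC oxygenases, which need iron, oxygen and 2-oxoglutarate. Methylation of H3K4 is known from active promoters and enhancers, H3K36 and H3K79 from transcribed gene bodies, and H3K9, H3K27 and H4K20 largely from silent chromatin. In prostate cancer cells, KDM1A and several KDM4 enzymes are known as coregulators of the androgen receptor.

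The libraries held 20079050 to 25802417 counts in named genes, and 18043 genes passed the filter on low counts. CD276, a cell surface protein of the B7 family, was at 47.4 and 54.4 normalized CPM (counts scaled to the size of the library) in control replicates 1 and 3 and at 23.6 and 26.2 in knockout replicates 1 and 3. Its log2 fold change was -1.03 ± 0.16 (SE; adjusted p = 0.00561, edgeR), so its transcript was lower in both knockout libraries but not absent; the adjusted p was 0.048 and 0.0812 without control replicates 1 and 3. Of 11 epithelial and prostate line markers, 0 were called higher and 1 (KRT18) lower in edgeR, while on unadjusted p, and also in DESeq2, the counts were 1 higher and 1 lower, and the list summed to 4123 and 4025 CPM in the controls and to 3328 and 4047 after knockout. Of 10 markers of other cell types 5 were tested, and LUM was called higher and COL1A1 lower; the list summed to 62.9 and 56.3 CPM in the controls and to 36.2 and 51.03 in the knockouts. CD3E and PECAM1, which define T cells and endothelium, had 0 counts in each library, which allows up to 0.149 CPM in the shallowest. The other untested markers were low but not absent. By library (control replicates 1 and 3, then knockout replicates 1 and 3), counts were 0, 0, 0 and 2 for VWF. They were 1, 0, 3 and 2 for PTPRC and 5, 9, 2 and 5 for CD68. COL1A1 gave most of the list sum, with 49.98, 46.2, 18.9 and 29.1 CPM by library. Any part of these markers in the results below was not tested.

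Of the 53 enzymes, 50 were tested. CPM below are scaled by trimmed mean of M-values, fold changes are knockout over control on the log2 scale with their SE, and a gene was called at an adjusted p under 0.05 over all genes tested. Of these, 9 enzymes were called, 5 higher and 4 lower, which is 18% of those tested beside 22.8% of all genes tested (9.87% higher and 12.9% lower). The enzymes were thus called at no higher a share than the background. In a bulk sample, fewer cells of a type and less RNA per cell cannot be told apart. Called higher were the erasers KDM1B and KDM5B and the writers SUV39H2, SETD9 and SETD3, and called lower were the writers KMT2B, SETD5, KMT2E and SETD4.

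Among erasers 2 of 18 tested were higher and 0 lower, and among writers 3 of 32 were higher and 4 lower. At an unadjusted edgeR p under 0.05, 5 erasers were higher and 0 lower, and 4 writers were higher and 7 lower. DESeq2 called 2 erasers higher and 0 lower, and 4 writers higher and 2 lower. Writers were taken by symbol, and the called SETD9, SETD3, SETD5, KMT2E and SETD4 were assigned to none of the histone residue groups. The median log2 fold change was -0.07 for writers and 0.16 for erasers, beside -0.00 for all genes tested and 0.06 for protein-coding ones. An estimate above 0 was found for 15 of 32 writers and 13 of 18 erasers, against 49.7% of all genes. The difference between the classes was not tested, and the writers' median was 0.04 when libraries were scaled by their totals alone, a scaling that moved the median of all genes by 0.11. Under that scaling 4 writers were higher and 1 lower, and 3 erasers were higher and 0 lower, and among all genes 2340 were higher and 1781 lower in place of 1780 and 2331. The normalized CPM of the groups did not overlap for 31 of the 50 enzymes (19 writers and 12 erasers), beside 65.9% of all genes. Without control replicate 1 none of the 9 calls remained and without control replicate 3 none did, while all 9 remained without either knockout library. The calls over all genes moved alike: 1.65% and 3.15% of all genes were called without control replicates 1 and 3, and 45.7% and 48.3% without knockout replicates 1 and 3. Under the other alternatives the share of all genes called was 22.3% (RLE scaling), 22.4% (upper quartile), 22.8% (library totals; 13% higher and 9.87% lower), 16.5% (no filter), 27.9% (at least 50 counts), 22.3% (DESeq2; 10.4% higher and 11.9% lower), 22% (limma voom), 23% (no robust estimation), 26.8% (replicate block), 21.7% (protein-coding genes alone) and 25.9% (GC and length offsets).

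**Figure D1:**
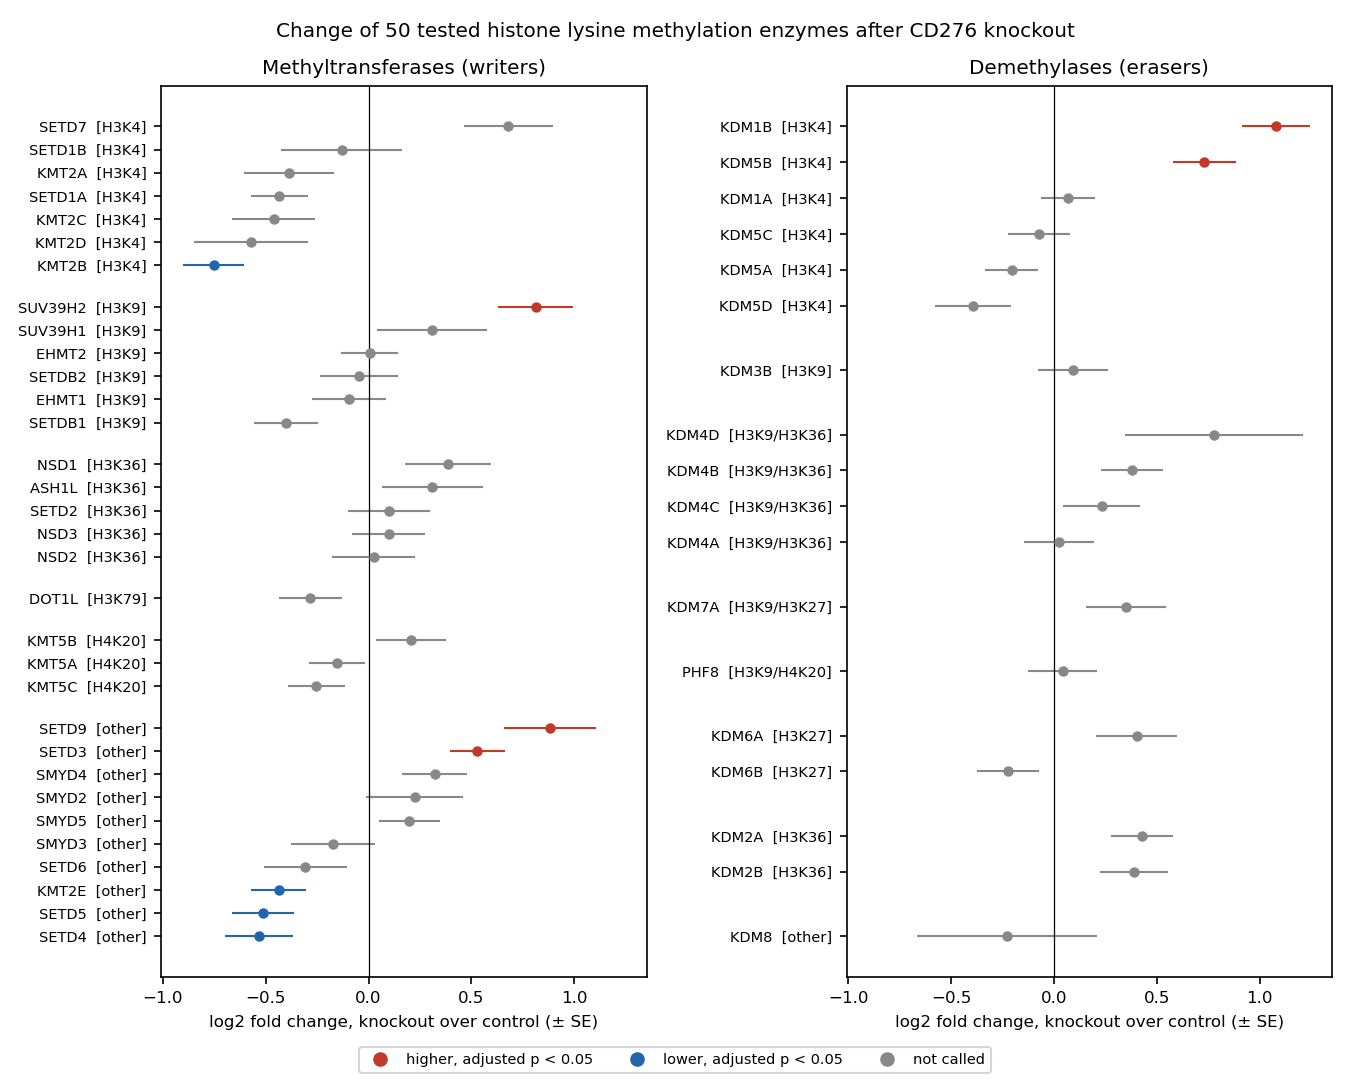
Log2 fold change (knockout over control, horizontal axis, ± SE) of the 50 tested enzymes, writers on the left and erasers on the right, grouped by the residue each is known for; red points were called higher, blue lower and grey not called. Writers spread to both sides, from -0.75 for KMT2B to 0.88 for SETD9, and the erasers' called points, KDM1B and KDM5B, both lie above 0.

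The H3K4 writers had the lowest median of the residue groups, -0.43 over 7 genes. KMT2A, KMT2B, KMT2C, KMT2D, SETD1A and SETD1B are the catalytic subunits of the 6 SET1/COMPASS complexes, and all 6 had an estimate below 0, with a median of -0.45. Both depended on the knockout libraries. Without knockout replicate 3 the median was -0.10, 4 of 6 were below 0, SETD1B was at 0.38 and KMT2A at 0.00. Without knockout replicate 1 the median was -0.80 and all 6 were below 0. With all 4 libraries KMT2B was called lower in edgeR and 0 were called higher. At an unadjusted edgeR p under 0.05, 3 were lower and 0 higher, and DESeq2 called 0 higher and 1 lower. KMT2B, which methylates H3K4 at CpG-rich promoters, was at 188 and 183 CPM in control replicates 1 and 3 and at 121 and 99.2 in knockout replicates 1 and 3. Both knockout libraries lay far below both controls. The mean fell from 186 ± 2.97 (SD, n = 2) to 110.1 ± 15.4 CPM, a log2 fold change of -0.75 ± 0.15 (adjusted p = 0.0114, edgeR). Its adjusted p was 0.185 without control replicate 1 and 0.128 without control replicate 3, and 9.391e-16 to 0.185 over the 15 alternatives. KMT2B lies at chr19:35718019-35738878 on the plus strand, and 0.759% of its exonic bases overlap exons of IGFLR1 on the other strand.

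The other 5 SET1/COMPASS enzymes did not pass the test. SETD1A, of the SET1 complexes that make most H3K4 trimethylation, was nearest, at 80.7 and 84.1 CPM in the controls and 65.1 and 56.8 after knockout (log2 fold change -0.43 ± 0.14, adjusted p = 0.0535, edgeR). Its groups did not overlap, and it was called under upper quartile scaling, with the stricter filter of 50 counts, and without either knockout library. For the remaining 4, much of the estimate lay in knockout replicate 3. KMT2D, the enhancer H3K4 monomethylase often mutated in cancers, was at 219 and 231 CPM in the controls, and at 203 and 100.3 in the knockout libraries (-0.57 ± 0.28, adjusted p = 0.165, edgeR), and it was also called with no filter on low counts and with the replicate block. Its close relative KMT2C was at 85.3 and 80.6 in the controls and 73.4 and 47.2 after knockout (-0.46 ± 0.20, adjusted p = 0.128, edgeR), and KMT2C has near-identical copies elsewhere in the genome, so its count is uncertain. KMT2A (MLL1), known from leukaemia fusions, was at 86.97 and 86.6 in the controls and, after knockout, 82.98 and 49.8 (-0.39 ± 0.22, adjusted p = 0.227, edgeR). Another gene on the same strand overlaps 17.9% of KMT2A exonic bases. In these 3 enzymes knockout replicate 1 lay slightly below the controls and knockout replicate 3 well below. Without knockout replicate 1 these 3 enzymes were at -1.15 (KMT2D), -0.80 (KMT2C) and -0.79 (KMT2A). Without knockout replicate 3 they were at -0.08, -0.11 and 0.00. KMT2C was also called with the replicate block. SETD1B was at 60.8 and 67.9 CPM in the controls, and the knockouts lay on either side of them, at 80.05 and 37.5 (-0.13 ± 0.29, adjusted p = 0.779, edgeR). Over the 6 enzymes the median difference from the control mean was -0.16 for knockout replicate 1 but -0.80 for replicate 3.

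SETD7, a monomethylase first known for H3K4 that acts on many other proteins, had the opposite sign. It was at 59.6 and 64.9 CPM in the controls and 124 and 75.5 after knockout (0.68 ± 0.22, adjusted p = 0.0545, edgeR). Both knockouts lay above both controls, and SETD7 was called by DESeq2, with library totals alone, with no filter on low counts, with the replicate block, with GC and length offsets and without either knockout library.

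KMT2E, a KMT2 gene by name, and SETD5 were assigned to none of the histone residue groups. KMT2E is thought to have no methyltransferase activity of its own. KMT2E was at 125 and 126 CPM in the controls and 97.4 and 87.8 after knockout, and the means were 125 ± 1.09 and 92.6 ± 6.78 (SD, n = 2; log2 fold change -0.44 ± 0.13, adjusted p = 0.048, edgeR). SETD5, a chromatin protein whose own enzymatic activity is disputed, was at 186 and 190.3 CPM in the controls and at 146 and 118 after knockout. Its mean fell from 188 ± 2.87 to 132 ± 19.5 (SD, n = 2; -0.51 ± 0.15, adjusted p = 0.0416, edgeR). The groups did not overlap in either gene. Both calls were near the threshold: KMT2E was called in 8 and SETD5 in 11 of 15 alternatives, and without control replicates 1 and 3 the adjusted p was 0.427 and 0.3998 for KMT2E and 0.357 and 0.3397 for SETD5. With KMT2E, all 5 KMT2 genes had estimates below 0, also under each other scaling tried, but without knockout replicate 3 KMT2A was at 0.00 and the median of the 5 moved from -0.46 to -0.11. Their summed level per kilobase of exons (RPKM) was 49.5 and 49.6 in the controls and 38.5 and 28.0001 after knockout.

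The erasers of H3K4 held the enzyme with the largest fold change of the 50 tested. KDM1B, the amine oxidase that removes H3K4 mono- and dimethylation in gene bodies and in the oocyte, was at 13.8 and 14.7 CPM in the controls and at 31.8 and 28.3 after knockout. Each knockout library held about the same level, and both lay far above the controls. The mean rose from 14.3 ± 0.651 to 30.1 ± 2.48 CPM (SD, n = 2; log2 fold change 1.08 ± 0.17, adjusted p = 0.00582, edgeR). KDM1B lies at chr6:18155329-18223853 on the plus strand and shares no exonic base with another annotated gene. Its paralog KDM1A, the subunit of the CoREST complex, was at 97.2 and 90.9 CPM in the controls and 96.7 and 101 after knockout, and the groups overlapped (0.07 ± 0.13, adjusted p = 0.736, edgeR).

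KDM5B (JARID1B), which removes H3K4 di- and trimethylation and is known as overexpressed in prostate and breast cancers, was the other eraser called. It was at 26.1 and 26.9 CPM in the controls and at 41.1 and 46.9 after knockout, with no overlap. The mean rose from 26.5 ± 0.595 to 43.99 ± 4.101 CPM (SD, n = 2; 0.73 ± 0.15, adjusted p = 0.0137, edgeR). Its 3 paralogs had estimates below 0 and none was called: KDM5A -0.21 ± 0.13, KDM5C -0.07 ± 0.15 and KDM5D -0.40 ± 0.18 (adjusted p = 0.275, 0.754 and 0.15, edgeR), and that of KDM5C turned to 0.04 with library totals alone. KDM5C and KDM5D are copies on the X and Y chromosomes, and how reads matching both were counted is not given. Without control replicates 1 and 3 the adjusted p was 0.109 and 0.0622 for KDM1B and 0.247 and 0.1705 for KDM5B; both were called in 13 of 15 alternatives, with adjusted p from 1.878e-17 to 0.109 and from 1.655e-11 to 0.247.

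**Figure D2:**
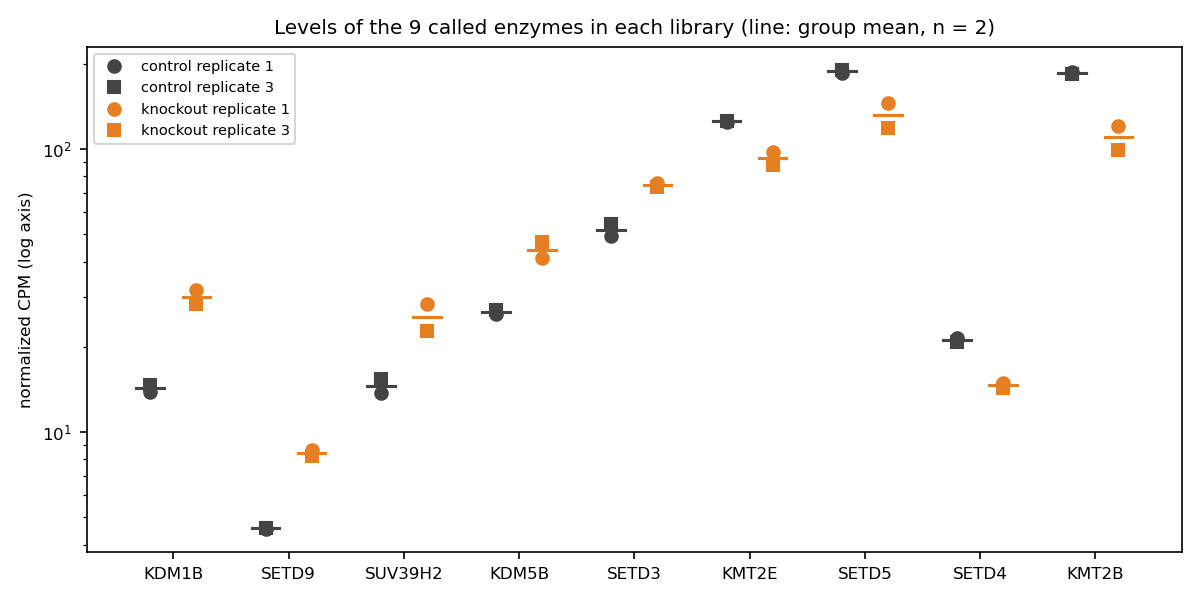
Normalized CPM (vertical log axis) of the 9 called enzymes in each library, control replicates in grey and knockout replicates in orange, circles for replicate 1, squares for replicate 3 and a line at each group mean. For every gene shown both knockout points lie on the same side of both control points; KDM1B goes from 13.8 and 14.7 to 31.8 and 28.3, and KMT2B from 188 and 183 to 121 and 99.2.

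H3K9 writers were mixed. SUV39H2, which trimethylates H3K9 in pericentric heterochromatin, was at 13.7 and 15.3 CPM in the controls and 28.3 and 22.7 after knockout, both above the controls. The mean rose from 14.5 ± 1.12 to 25.5 ± 3.93 CPM (SD, n = 2; 0.81 ± 0.18, adjusted p = 0.0172, edgeR). The adjusted p was 0.266 and 0.139 without control replicates 1 and 3, and 3.865e-12 to 0.266 over the 15 alternatives. SUV39H2 lies at chr10:14878820-14904315 on the plus strand, and 4.46% of its exonic bases overlap DCLRE1C on the other strand. Its paralog SUV39H1 was lower in level, at 6.67 and 5.37 CPM in the controls and 8.91 and 6.03 after knockout, and the groups overlapped (0.31 ± 0.27, adjusted p = 0.427, edgeR); 20.3% of its exonic bases overlap a gene on the other strand.

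The euchromatic H3K9 dimethylases EHMT1 and EHMT2 (GLP and G9a) and SETDB2 had estimates within 0.1 of 0, of -0.09, 0.01 and -0.05, whose sign changed with the scaling. SETDB1, the writer that works with KAP1 at retroelements, was at 80.4 and 86.7 CPM in the controls and 70.6 and 55.7 after knockout (-0.40 ± 0.16, adjusted p = 0.0917, edgeR), and was called with GC and length offsets and without knockout replicate 1. CERS2 on the other strand overlaps 13.4% of SETDB1 exonic bases. Of the 6 H3K9 writers, 1 was thus higher and 0 lower in edgeR, 1 and 1 on unadjusted p, and 1 and 0 in DESeq2.

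With all 4 libraries, writers of H3K36, H3K79 and H4K20 gave no call: 0 of 9 in edgeR, 0 with p unadjusted at the same threshold, and 0 in DESeq2. The 5 H3K36 writers split the knockout libraries. NSD1, of the dimethylases, was at 53.96 and 59.7 CPM in the controls and 90.98 and 57.6 after knockout (0.39 ± 0.21, adjusted p = 0.208, edgeR). ASH1L, another dimethylase, was at 39.5 and 44.1 in the controls and 66.5 and 37.2 after knockout (0.31 ± 0.25, adjusted p = 0.388, edgeR). In both genes knockout replicate 1 stood above the controls and knockout replicate 3 within or below their range. NSD2 (MMSET), highly expressed in advanced prostate cancer, followed the same order, at 258 and 279 in the controls and 328 and 218 after knockout (0.03 ± 0.20, adjusted p = 0.939, edgeR). All 5 H3K36 writers depended on the knockout library. Without knockout replicate 3 all 5 were above 0, with a median of 0.44. Without knockout replicate 1 the median was -0.16 and 4 were below 0, with NSD2 at -0.29. NSD3 and SETD2, the H3K36 trimethylase, were at 0.10 ± 0.18 and 0.10 ± 0.20 (adjusted p = 0.727 and 0.748, edgeR). DOT1L, the H3K79 writer, had an estimate of -0.28 ± 0.15, and the H4K20 writers KMT5A, KMT5B and KMT5C of -0.15 ± 0.14, 0.21 ± 0.17 and -0.25 ± 0.14 (adjusted p = 0.205, 0.443, 0.407 and 0.209, edgeR).

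Outside H3K4, 12 erasers were tested and 0 were called in edgeR, although 3 were higher and 0 lower on unadjusted p, and DESeq2 gave 0 calls. Their median was 0.29, and 10 of 12 estimates were above 0, beside 49.7% of all genes and 54.3% of protein-coding genes. With GC and length offsets 7 of 12 were above 0, KDM3B, KDM4A and PHF8 having turned, and without knockout replicate 1 also 7. KDM2A, the CpG-binding H3K36 demethylase, came nearest, at 55.9 and 59.2 CPM in the controls and 85.8 and 68.96 after knockout (0.43 ± 0.15, adjusted p = 0.0737, edgeR), and its paralog KDM2B, which recruits a Polycomb complex to CpG islands, had 0.39 ± 0.16 (adjusted p = 0.118, edgeR). KDM4B, an androgen receptor coactivator that removes H3K9 trimethylation, was at 62.5 and 69.5 in the controls and 77.9 and 93.7 after knockout (0.38 ± 0.15, adjusted p = 0.0974, edgeR). The groups did not overlap in any of these 3 genes. KDM2A was called with no filter on low counts, KDM4B with library totals and with GC and length offsets, and both without either knockout library. The median of the 12 was 0.20 without knockout replicate 1. Without knockout replicate 3 it was 0.32, and 11 of the 12 were above 0. KDM4A, KDM4C and KDM4D had estimates of 0.02 ± 0.17, 0.23 ± 0.19 and 0.78 ± 0.43 (adjusted p = 0.935, 0.404 and 0.219, edgeR); that of KDM4A turned to -0.01 with upper quartile scaling, and 40.2% of its exonic bases lie in another gene on the same strand.

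The H3K27 demethylases had opposite signs. KDM6A (UTX), which also sits in the KMT2C and KMT2D complexes, was at 15.6 and 16.3 CPM in the controls and 24.3 and 17.7 after knockout (0.40 ± 0.20, adjusted p = 0.169, edgeR). KDM6B (JMJD3), a stress- and cytokine-induced enzyme, was at 241 and 290.3 in the controls and 227 in each knockout library (-0.23 ± 0.15, adjusted p = 0.307, edgeR). Neither overlapped between groups, and neither passed the test. KDM3B, KDM7A, PHF8 and KDM8 had estimates of 0.09, 0.35, 0.04 and -0.23, with adjusted p from 0.218 (KDM7A) to 0.883 (PHF8) in edgeR.

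The remaining writers have SET domains but act largely or partly on proteins other than histones. SETD3, the actin histidine methyltransferase, was at 49.1 and 54.3 CPM in the controls and 75.6 and 73.6 after knockout. Its mean rose from 51.7 ± 3.63 to 74.6 ± 1.41 CPM (SD, n = 2; 0.53 ± 0.14, adjusted p = 0.0263, edgeR). SETD9, a little-studied SET domain gene, was at 4.52 and 4.59 CPM in the controls and 8.61 and 8.195 after knockout, the lowest level of the called genes. Its mean rose from 4.56 ± 0.0509 to 8.401 ± 0.291 CPM (SD, n = 2; 0.88 ± 0.22, adjusted p = 0.0248, edgeR), on 101, 89, 226 and 212 counts, and 8.08% of its exonic bases overlap a gene on the other strand. SETD4, linked to quiescent cells, was at 21.5 and 20.8 CPM in the controls and 14.9 and 14.3 after knockout. Its mean fell from 21.1 ± 0.524 to 14.6 ± 0.361 CPM (SD, n = 2; -0.53 ± 0.16, adjusted p = 0.0486, edgeR). In all 3 genes replicates of a group lay close together and the groups did not overlap. Without control replicates 1 and 3 the adjusted p was 0.428 and 0.237 for SETD3, 0.305 and 0.241 for SETD9, and 0.442 and 0.343 for SETD4, which was called in 7 of 15 alternatives. SETD6, which methylates the NF-kappaB subunit RELA, and SMYD2 to SMYD5 were not called, with estimates from -0.31 (SETD6) to 0.32 (SMYD4).

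The enzymes too low to test were 3 in number. SMYD1, a writer of heart and skeletal muscle, had 1 count in knockout replicate 1 and 0 elsewhere, KDM4F likewise, and KDM4E had 0 in every library. A count of 0 allows up to 3 counts, or 0.116 to 0.149 CPM by library. These limits cover counting error only.

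The 2 knockout libraries differed from each other in these enzymes. They also lay further apart than the controls across all genes, with r = 0.979 against 0.990. Knockout replicate 1 was above knockout replicate 3 in 41 of the 50 tested (82.0%), in 30 of 32 writers and in 11 of 18 erasers, while over all genes the share was 49.8%. The KMT2 genes and the H3K36 writers had this order in 5 of 5 each. The median difference from the control mean for writers was 0.13 in knockout replicate 1 but -0.23 in replicate 3, and for erasers 0.23 and 0.12. The knockout libraries lay on opposite sides of the control mean for 15 of 50 enzymes (30%), beside 23.3% of all genes, and for 4 of the 5 H3K36 writers. Across the 32 writers the difference between the knockout libraries went with the log2 exonic length (Pearson's r = 0.56, Spearman's rho = 0.60). Across the 18 erasers r was -0.14 and rho -0.25, and across all genes r was 0.16 and rho 0.23. These correlations are across genes of the same libraries and are a description, and any part of transcript length or RNA quality in them was not tested.

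**Figure D3:**
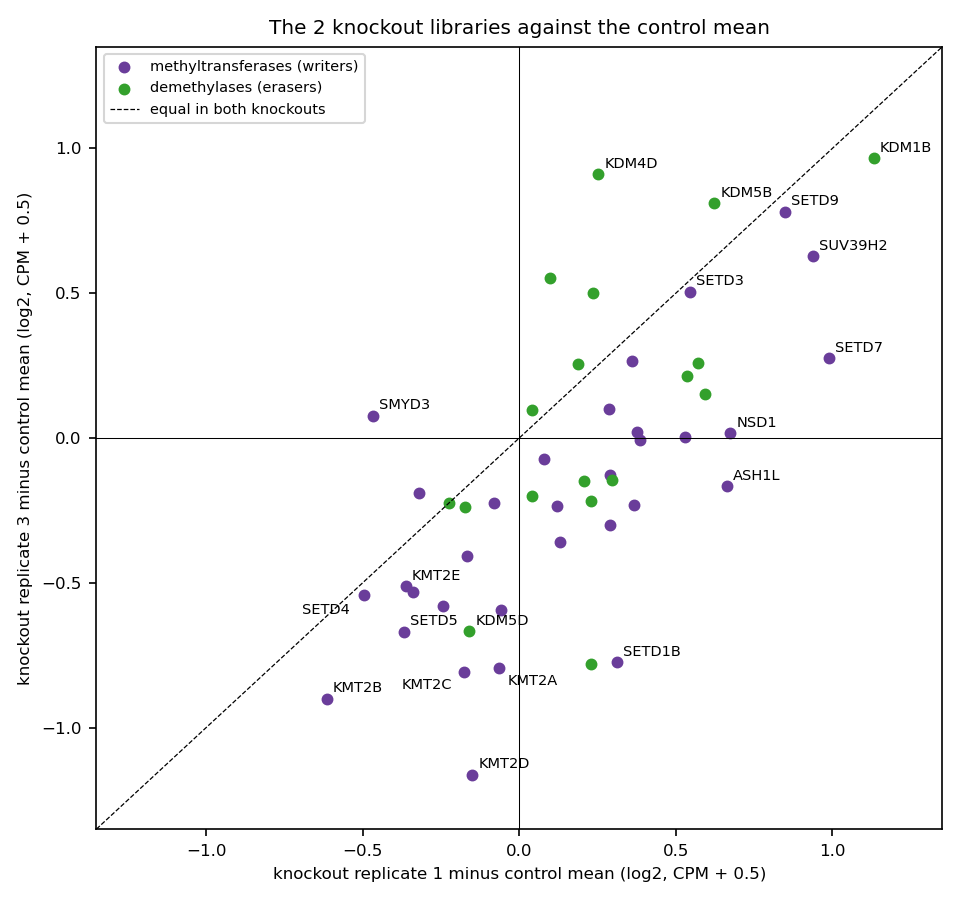
Log2 difference of each tested enzyme from the control mean in knockout replicate 1 (horizontal axis) and knockout replicate 3 (vertical axis), on CPM plus 0.5, with writers and erasers in different colours and the diagonal marking equal values. Most points, 41 of 50, lie below the diagonal, and the 5 KMT2 genes have a median of -0.81 on the vertical axis against -0.18 on the horizontal.

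Per kilobase of exons, the enzymes spanned a wide range of levels. KDM6B was highest of all, at 36.6 ± 4.81 RPKM in the controls and 31.3 ± 0.0137 in the knockouts (SD, n = 2), followed among erasers by KDM5C and KDM1A at 21.5 ± 1.83 and 17.3 ± 0.826 in the controls. KMT5A led the writers at 31.4 ± 0.934 RPKM in the controls and 28.3 ± 1.999 in the knockouts, followed by DOT1L and EHMT2 at 23.4 ± 1.49 and 22.1 ± 1.07 in the controls. In the controls and knockouts DOT1L was at 251, 275, 234 and 199 CPM, KMT5A at 141, 147, 136 and 123, EHMT2 at 156, 167, 170.3 and 153, and KDM5C at 176, 199, 193 and 163 (replicates 1 and 3 of each group in turn). None of these 6 enzymes was called, and the groups overlapped for EHMT2, KDM5C and KDM1A. The median control level was 5.1954 RPKM for tested writers and 4.76 for tested erasers, and 12 writers and 4 erasers were above 10 RPKM. KDM1B went from rank 40 of 53 in the controls to rank 27 in the knockouts, and KMT2B from rank 6 to rank 13. Lengths are of all annotated exons together, which lowers the level of genes with many annotated transcripts, such as KDM5B with 40 transcripts and 25882 exonic bases (1.02 RPKM).

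**Figure D4:**
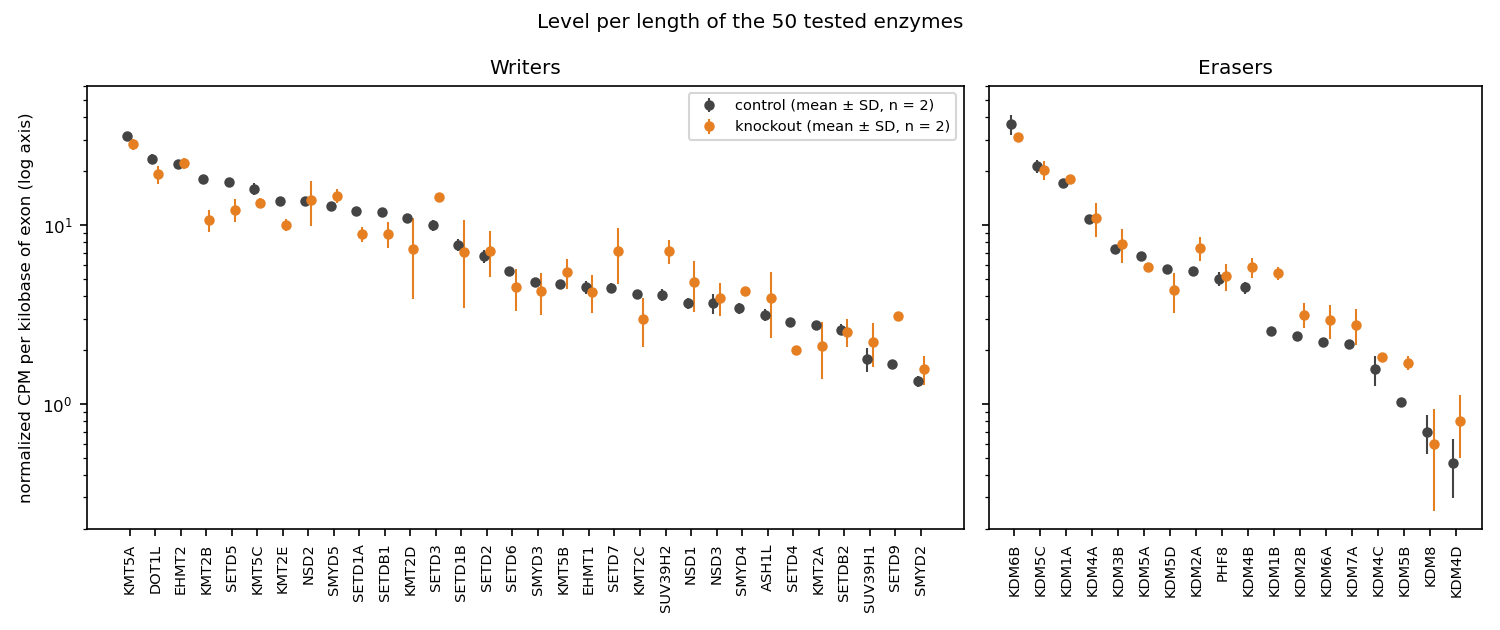
Normalized CPM per kilobase of exon (RPKM, vertical log axis) of the 50 tested enzymes, writers on the left and erasers on the right, in order of their control level; points are means and bars the SD of 2 libraries, control in grey and knockout in orange. KMT5A and KDM6B lead their classes; KDM1B stands apart between the groups (2.55 to 5.38), as does KMT2B (18.1 to 10.7), and KMT2D has a wide knockout bar (7.397 ± 3.54).

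Summed per length, writers came to 281 and 293 RPKM in the controls and to 292 and 237 in the knockouts, and erasers to 129 and 139 and to 143 and 129.8. The ratio of writers to erasers was 2.17 and 2.11 in the controls and 2.04 and 1.82 after knockout. The writers' sum includes 11 genes assigned to none of the histone residue groups. Among these, SETD5, KMT2E and SMYD5 were at 17.4, 13.6 and 12.7 RPKM in the controls. KDM6B alone gave 36.6 RPKM of the erasers' sum in the controls. For H3K4 alone, the 7 writers summed to 59.4 and 61.1 RPKM in the controls and 56.03 and 36.7 after knockout, while the 6 erasers summed to 53.8 and 55.6 and to 58.2 and 53.3. The ratio of H3K4 writers to erasers was 1.103 and 1.099 in the controls and 0.964 and 0.689 after knockout. Both ratios were lower in each knockout library than in each control, with most of the distance in knockout replicate 3. No test was made of these sums, and transcript levels are not enzyme activities.

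The promoters of KDM1B, KMT2B and SUV39H2, the eraser and the writers with the strongest calls in their groups, are shown because they differ in the letters they hold. They come from RefSeq (GRCh38.p14), which had 49 of the 53 genes, and are the part of the 250 bases counted from the RefSeq window's start that lies before the first annotated exon. All 3 are on the plus strand, at chr6:18155172-18155328, chr19:35717753-35718002 and chr10:14878616-14878819. Capitals mark GC boxes (GGGCGG) and E2F-type letters (GCGGGAA) on either strand.
KDM1B: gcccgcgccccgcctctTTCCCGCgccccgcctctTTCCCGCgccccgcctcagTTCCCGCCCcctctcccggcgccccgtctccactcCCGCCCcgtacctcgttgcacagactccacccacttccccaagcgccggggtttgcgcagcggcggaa
KMT2B: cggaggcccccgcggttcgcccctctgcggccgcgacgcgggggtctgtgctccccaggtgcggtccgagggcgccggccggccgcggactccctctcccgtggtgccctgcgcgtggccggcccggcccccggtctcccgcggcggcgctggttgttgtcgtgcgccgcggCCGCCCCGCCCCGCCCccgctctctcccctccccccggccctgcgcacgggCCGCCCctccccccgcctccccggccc
SUV39H2: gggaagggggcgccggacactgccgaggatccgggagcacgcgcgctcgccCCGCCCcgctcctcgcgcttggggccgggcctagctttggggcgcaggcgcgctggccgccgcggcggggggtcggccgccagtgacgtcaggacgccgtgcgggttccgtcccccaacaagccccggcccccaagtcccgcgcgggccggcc
The KDM1B stretch holds the E2F-type letters 3 times, as TTCCCGC, the last overlapping a GC box. The KMT2B stretch holds 4 GC boxes, 3 of which follow each other and share an end base. In windows of 250 bases, the E2F-type letters were found in 2 of 49 enzymes (4.08%) and in 8.79% of 10843 tested protein-coding genes, and a GC box in 71.4% and 67.0%, in 80% of writers and in 57.9% of erasers. All 9 called enzymes had a GC box in their window. The median number of CpG was 23 for the enzymes and 21 for tested protein-coding genes. A match of letters is a description and not a binding site.

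Fold changes across the enzymes went with base composition and level. Across the 50 tested, the log2 fold change had r = -0.39 with the GC content of the transcript (rho = -0.37) and r = -0.52 with the control RPKM (rho = -0.54). Over all genes r with GC was -0.07 (rho = -0.15). No value over all genes is given here for the control RPKM, so that correlation has no background beside it. The lowest estimates were of KMT2B, KMT2D, SETD4, SETD5 and KMT2C (-0.75, -0.57, -0.53, -0.51 and -0.46). In the controls these were at 18.1, 11.0, 2.89, 17.4 and 4.12 RPKM. Their GC content was 63.5%, 59.1%, 48.5%, 48.6% and 45.0%. The control level enters the fold change itself, and the part of GC content was not tested. With GC and length offsets all 9 calls remained and 4 were gained (SETDB1, SETD7, KDM4B and KDM5D). Of all genes 25.9% were then called, in place of 22.8%. The SET1/COMPASS median moved from -0.45 to -0.34, KMT2D from -0.57 to -0.28 and the eraser median from 0.16 to 0.084.

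The enzymes' partners and related methylation genes were counted from lists, to be read beside the 22.8% of all genes called (9.87% higher and 12.9% lower). The lists are short, and no difference from that background was tested. Of 14 COMPASS partner subunits, 1 was higher and 4 lower (median -0.15). ASH2L, a core subunit of all 6 complexes, rose from 51.4 and 54.8 CPM in the controls to 91.3 and 77.003 in the knockouts (0.67 ± 0.15, adjusted p = 0.0155, edgeR). BOD1L1, a partner of SETD1A at replication forks, fell from 63.5 and 69.4 to 40.3 and 32.1 (-0.88 ± 0.16, adjusted p = 0.00902, edgeR). PAGR1, of the KMT2C and KMT2D complexes, was also lower (-0.77 ± 0.14, adjusted p = 0.00956, edgeR), although 66.0% of its exonic bases lie in another gene on the same strand. MEN1 and CXXC1, the remaining lower subunits, are named after their values were seen (-0.61 and -0.47). PAGR1 and CXXC1 lost their calls with GC and length offsets, and CXXC1 also with RLE scaling, library totals and the replicate block.

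The subunits of Polycomb complex 2 and the PRDM family, outside the naming rule, gave 0 higher and 2 lower of 16 tested (1 and 2 on unadjusted edgeR p, 0 and 2 in DESeq2), and both lower genes were the catalytic subunits of that complex, which writes H3K27 methylation. EZH2, overexpressed in advanced prostate cancer, fell from 192 and 176 CPM to 129 and 99.4 (-0.69 ± 0.16, adjusted p = 0.0199, edgeR), and EZH1 had -0.72 ± 0.14 (adjusted p = 0.0114, edgeR). The other listed subunits, EED and SUZ12, were not called (0.01 ± 0.16 and 0.20 ± 0.18, adjusted p = 0.964 and 0.437, edgeR). Among all genes 12.9% were called lower. Among JmjC proteins outside the rule, 1 of 13 was higher, RIOX2 (0.77 ± 0.17, adjusted p = 0.0175, edgeR), and 1 lower, HSPBAP1 (-1.19 ± 0.21, adjusted p = 0.00774, edgeR). On the other strand, 27.6% of RIOX2 exonic bases are overlapped. Of 13 tested partners of LSD1, 2 were higher and 0 lower (3 and 3 on unadjusted edgeR p, 3 and 0 in DESeq2). ZNF217, a zinc finger protein that binds the CoREST complex, was among the higher ones (0.72 ± 0.15, adjusted p = 0.0146, edgeR).

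H3K9 partners and readers gave 3 higher and 3 lower of 16. MPHOSPH8, the H3K9 reader of the HUSH silencing complex, fell from 138 and 153 CPM to 60.7 and 67.5 (-1.18 ± 0.14, adjusted p = 0.00304, edgeR), the smallest p of all list genes. CDYL, a reader that links H3K9 methylation to Polycomb, was higher (0.74 ± 0.16, adjusted p = 0.0138, edgeR) and L3MBTL1, which binds H4K20 methylation, lower (-0.88 ± 0.20, adjusted p = 0.0172, edgeR). FAM208A (TASOR, also of HUSH), CBX1 and WIZ were the other calls, at 0.85, 0.62 and -0.46, and are named after their values were seen; WIZ lost its call with RLE scaling, library totals, DESeq2, the replicate block and GC and length offsets. Of 18 partners and readers of H3K36, H3K79 and H4K20, 3 were higher and 0 lower (the same counts on unadjusted edgeR p and in DESeq2). They were MLLT3 and AFF4, of the complexes around DOT1L and transcription elongation, at 0.94 ± 0.18 and 0.88 ± 0.17, and MORF4L1, an H3K36 reader, at 0.75 ± 0.14 (adjusted p = 0.00956, 0.0108 and 0.0103, edgeR).

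Of 9 tested genes of a list of arginine methyltransferases with the PRMT5 cofactor WDR77, 3 were higher and 1 lower. The higher ones were PRMT5 (0.73 ± 0.17, adjusted p = 0.0197), CARM1 (0.45 ± 0.14, adjusted p = 0.0467) and PRMT6 (0.53 ± 0.17, adjusted p = 0.049). The lower one was PRMT7 (-0.51 ± 0.14, adjusted p = 0.0299, all edgeR). PRMT6 is named after its values were seen. On the other strand, 27.1% of PRMT5 and 19.9% of CARM1 exonic bases are overlapped. CARM1 and PRMT6 lost their calls with upper quartile scaling, at least 50 counts, limma voom and protein-coding genes alone, CARM1 also with the replicate block, PRMT6 with RLE scaling, and PRMT7 with library totals. Genes of the methyl donor and of demethylase cofactors had 3 higher and 0 lower of 14 (9 and 1 on unadjusted edgeR p, 4 and 0 in DESeq2) and a median of 0.43, with 13 of 14 estimates above 0. MAT2A, which makes S-adenosylmethionine, rose from 52.8 and 61.9 CPM to 169 and 112 (1.29 ± 0.20, adjusted p = 0.00635, edgeR), with 12.4% of its exonic bases overlapping the other strand. AHCYL1, a relative of the enzyme that clears S-adenosylhomocysteine, had 0.73 ± 0.13 (adjusted p = 0.00902, edgeR), and IDH1, which makes 2-oxoglutarate, 0.68 ± 0.15 (adjusted p = 0.0159, edgeR). Of the 27 called genes in these lists, only MPHOSPH8 remained called without control replicate 1, MPHOSPH8 and MAT2A without control replicate 3, and all 27 without either knockout library.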

How the data were processed

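The deposited table, made by the authors, holds raw read counts for each gene in 4 poly(A)-selected libraries, 2 a group. The submitters' processing notes name Trimmomatic 0.36, STAR 2.5.2b, featureCounts with Subread 1.5.2, and the build GRCh38. Neither the strand setting nor the handling of multi-mapping reads nor the annotation is given in the sources used here, so reads of genes that overlap on opposite strands may be mixed.

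Unnamed entries, 486 with 0.0191% to 0.0290% of a library's counts, were left out. The remaining genes went through filterByExpr, TMM scaling and the quasi-likelihood test of edgeR 4.0.16 (R 4.3.3; robust estimation, 1 term for group, 2 residual degrees of freedom); the Benjamini-Hochberg adjustment ran over the 18043 genes that passed, with calls at 0.05. The SE is the log2 fold change divided by the square root of F. The code was tested on simulated data. Positions, exon lengths, overlaps and GC content came from GENCODE 29, and promoters from RefSeq. All 140 list genes were found, TASOR as FAM208A. Some genes that the rules would name are not reported here.

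The members and lists were chosen with earlier results of these data known. Named by rule were CD276, every member, per-library values of called members, the 3 members of each class with the highest level per length, untested members as counts, paralogs of called members, and of each list up to 3 called genes with the smallest p; per-library values of members near the threshold, or with knockout libraries far apart, were added after seeing them. Alternatives were other scalings (RLE, upper quartile, library totals), filters (none, 50 counts), DESeq2 1.42.0, limma 3.58.1 voom, no robust estimation, a replicate block, protein-coding genes alone, GC and length offsets (spline with 5 degrees of freedom), and each library left out. The replicate numbers do not pair the libraries by any label.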

Additional observations from a re-analysis of the deposited data

How the results depend on the processing

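Of the 9 called enzymes, all kept their sign in all 15 alternatives; 9 kept their call with upper quartile scaling, a minimum of 50 counts, protein-coding genes alone, GC and length offsets, no robust estimation and without either knockout library, 8 with limma voom (SETD4 lost), 7 with DESeq2 and with no filter (KMT2E and SETD4 lost), and 6 with RLE scaling and library totals (SETD5, KMT2E and SETD4 lost). Writers called lower were 4, but 2 with DESeq2, 1 with RLE scaling and 1 with library totals. Erasers called lower were 0, but 1 (KDM5D) with GC and length offsets. The eraser median of 0.16 became 0.084 with GC and length offsets, 0.27 with library totals and 0.26 with no filter. Over the 18 erasers tested with the filter, the median with no filter was 0.19. With 1 library left out, where a lone library is taken to vary as the other group does, calls ranged from 45 to 4795 higher and 267 to 4471 lower over all genes, from 0 to 15 higher and 0 to 14 lower among writers, and from 0 to 9 higher and 0 to 2 lower among erasers; the medians ranged from -0.22 to 0.20 for writers and from 0.10 to 0.30 for erasers. With 1 library left out NSD2 ranged from -0.29 (without knockout replicate 1) to 0.36 and SETD1B from -0.77 to 0.38 (without knockout replicate 3; adjusted p = 0.000558, edgeR). Across all genes the 2 controls lay closer to each other (r = 0.990) than the 2 knockout libraries did (r = 0.979). The cause of these shifts was not tested.

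Same-numbered libraries are not paired by any label, and their deviations from the group means had r = -0.0152 across genes. With 2 libraries a group this value cannot show whether they shared a batch, which was not tested. With the replicate block, 2062 genes were higher and 2781 lower, in place of 1780 and 2331. Of the 9 calls 7 remained (KMT2E and SETD4 lost), and SETD7, KMT2C and KMT2D were gained. With 2 libraries a group, a gene such as SETD9 rests on 89 to 226 counts a library, and a missed call does not show that a gene did not differ.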
